A study of Homo sapiens with 9 samples.

Results

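GRP78 does not work alone in the lumen of the endoplasmic reticulum (ER), and 10 genes that encode its partners were followed here across H1975 RNA-Seq libraries: the J-domain proteins DNAJB9, DNAJB11, DNAJC1, DNAJC3, DNAJC10 and SEC63, the nucleotide exchange factors HYOU1 and SIL1, and the regulators SDF2L1 and MANF. They were chosen by what their products are known to do, with earlier results of these data known, and were matched by gene symbol. All 10 were present among the 61544 genes of the count files, and all 10 passed the filter on low counts that left 18653 genes for testing.

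H1975 is a human lung adenocarcinoma cell line. In all 9 libraries the cells had first been kept for 24 h with si78, an siRNA that targets the 3′ untranslated end of GRP78 mRNA and so spares a plasmid copy without it. They were then transfected for 48 h with the empty vector pcDNA3, with FLAG-tagged wild-type GRP78, named F-78(WT), or with F-78(NLS Mut), in which lysines of a putative nuclear localization sequence are replaced by alanines, with 3 libraries per group. The groups are named vector, WT and NLS Mut from here on. The comparison between both F-78 groups asked what changes with the nuclear localization of GRP78, and the comparisons with vector asked what changes when GRP78 is returned to depleted cells. Transfection was transient in a single cell line, so each library mixes cells that took up the plasmid with cells that did not, and cells treated with a control siRNA were not analysed here.

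GRP78 is an ATP-driven chaperone of the Hsp70 family. J-domain proteins deliver client proteins to it and trigger ATP hydrolysis, which closes its grip on the client. Nucleotide exchange factors then remove ADP so that the client is let go and the cycle can start again. Transcription of many of these partners rises in the unfolded protein response (UPR), when unfolded proteins pile up in the ER and draw GRP78 away from the stress sensors ATF6, IRE1 and PERK. ATF6 and the IRE1 product XBP1 bind short promoter sequences, the ER stress response elements.

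Promoter sequences of 9 of the 10 genes, from 250 bases before to 50 bases after the start site, were taken from RefSeq on GRCh38.p14 and searched on both strands. DNAJC1 had no entry. The element ERSE-II, searched as ATTGGNCCACG, was found in 2 of the 9 promoters, those of HYOU1 and SDF2L1, and in 19 of all 35116 promoter windows (0.0541%). HYOU1 held it in 2 places, 185 and 79 bases before the start site. SDF2L1 held it once, 188 bases before the start. These 3 stretches are shown because both genes were among those that changed in the libraries. Each is 30 bases, written 5′ to 3′ along the gene's strand, with the match in capitals. It reads on the opposite strand to the gene in all 3.
HYOU1, chr11:119057370-119057399, minus strand: gccccgtgaCGTGGTCCAATcccaggccga
HYOU1, chr11:119057264-119057293, minus strand: ggcctgggaCGTGGTCCAATgagtacgcgc
SDF2L1, chr22:21642105-21642134, plus strand: cctcggaagCGTGGACCAATcaaaaccctc

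The core that XBP1 binds, searched as ACGTGG, was found in 5 of the 9 promoters, against 9.72% of all windows: DNAJB9, DNAJC3, DNAJC10, SEC63 and HYOU1. In HYOU1 it overlaps both ERSE-II matches. DNAJB9 held it in 2 places close together, 74 and 48 bases before the RefSeq start. Both places lie inside the DNAJB9 interval given below, which comes from GENCODE and begins further upstream, at base 108569568. They are shown because the gene had the lowest p-value of the 10 between both F-78 groups.
DNAJB9, chr7:108569788-108569817, plus strand: aacaacagttttCCACGTgcgcgtagggcg
DNAJB9, chr7:108569814-108569843, plus strand: ggcgccgggatcACGTGGggaggcagaagc
The longer element ERSE, searched as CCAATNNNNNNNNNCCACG, was in 0 of the 9 promoters and in 0.0769% of all windows. The E-box, searched as CANNTG, was in 4 of the 9, against 68.7% of all windows: DNAJB9, DNAJC3, SIL1 and MANF. A match describes the letters of the window, not a site that was shown to be bound.

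The libraries held 17671055 to 27476298 counted reads. HSPA5, the gene of GRP78, stood at 359, 383 and 391 CPM (reads of a gene scaled to the size of the library) in the vector libraries, numbered Vector 1, 2 and 3. It stood at 5031, 5814 and 6145 CPM in WT and at 4962, 5156 and 4765 CPM in NLS Mut, so the F-78 plasmids can be seen in all 6 libraries that received them. The log2 fold change from vector was 3.91 ± 0.06 (SE) for WT and 3.71 ± 0.06 for NLS Mut. Between both constructs it was 0.19 ± 0.05 (edgeR adjusted p = 0.0795), and WT 1 lay within the range of the NLS Mut libraries. This difference passed in 5 of the 11 other settings that kept every library (adjusted p of 0.00952 to 0.0331) and without Vector 1 (0.00388), Vector 3 (0.0476) or WT 1 (0.00251). All 7 epithelial markers passed the filter, with a summed level of 4688 to 5515 CPM in each library. Markers of leukocytes, endothelium and fibroblasts summed to 12.5 to 19.1 CPM, and 4 of these 9 passed the filter. PDGFRB was the highest, with group means of 7.48 to 10.6 CPM, before PECAM1 (3.98 to 4.55) and CDH5 (1.63 to 2.59). CD3E, CD68 and DCN had no read in any library.

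Against vector, HYOU1 passed the test as lower in both F-78 groups, SDF2L1 in WT, where its groups overlapped, and MANF in NLS Mut. SDF2L1 in NLS Mut (-0.36, edgeR adjusted p = 0.11) and MANF in WT (-0.18, 0.277) were lower without passing. Neither passed between both constructs (0.802 and 0.522). Of the 9 fits that left out 1 library, HYOU1 in NLS Mut passed in all 9, MANF in 4, SDF2L1 in 2 and HYOU1 in WT in 1. SDF2L1 did not pass with DESeq2 or when corrected for GC content. Between WT and NLS Mut 0 of the 10 genes passed the test, beside 0.504% of all genes. Of the 6 J-domain proteins 0 passed in any comparison, beside 0.504% to 0.793% of all genes. At such shares a count of 0 does not set so few genes apart. DNAJB9 and DNAJB11 passed under some alternative settings, and these were the ones that stood lower in every WT library than in every other library. In bulk RNA, fewer cells with a transcript and less of it per cell cannot be told apart.

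**Figure D1:**
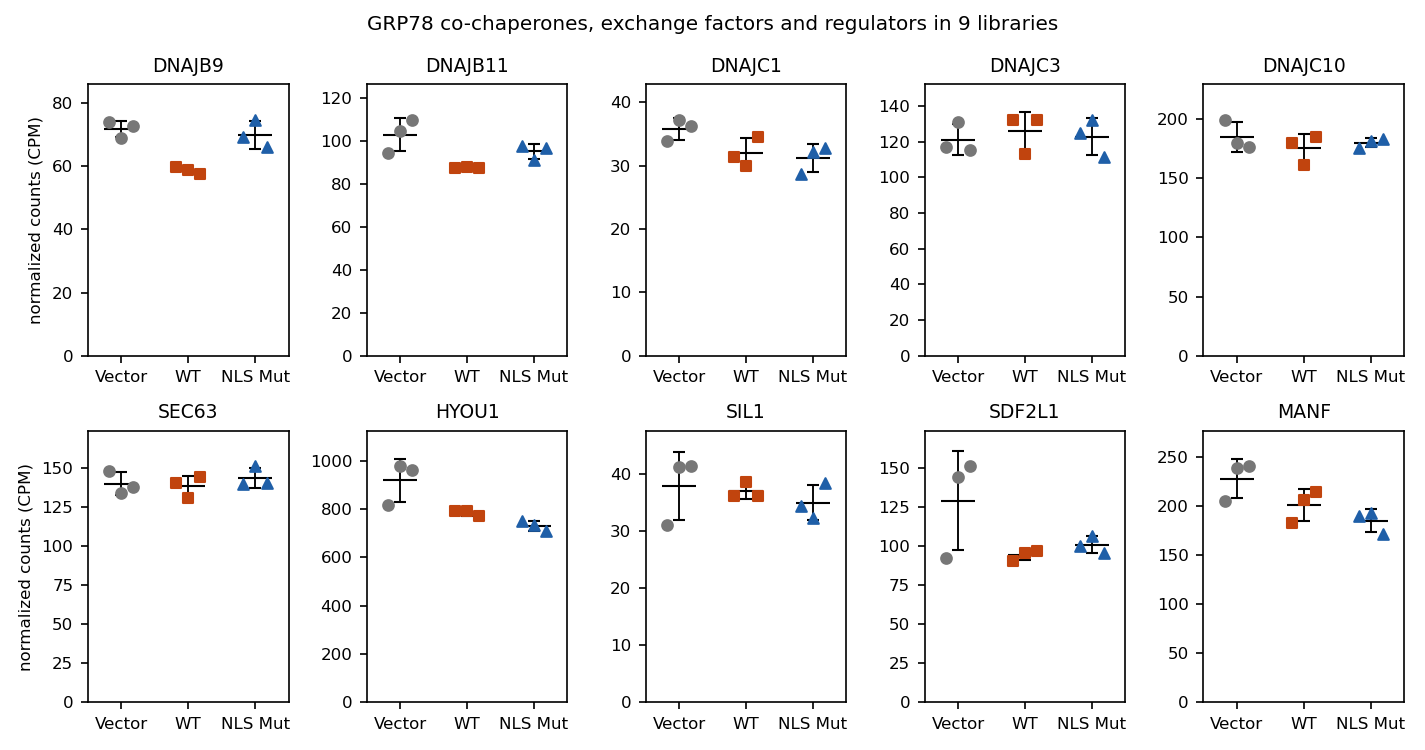
Normalized counts (CPM, vertical axes from 0) of the 10 genes in the vector, WT and NLS Mut libraries. Each point is 1 library, the long dash is the mean of 3 and the bars are 1 SD. HYOU1 lies at 817 to 976 CPM with vector and at 707 to 791 CPM in the 6 F-78 libraries, and Vector 1 lies below the other vector libraries for DNAJB11, DNAJC1, HYOU1, SIL1, SDF2L1 and MANF.

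DNAJB9 (ENSG00000128590.5, chromosome 7, 108569568 to 108574850, GRCh38), also known as ERdj4, is a J-domain protein that brings GRP78 to the sensor IRE1. It stood at 73.8, 68.8 and 72.6 CPM with vector, at 59.6, 58.7 and 57.4 CPM in WT and at 69.1, 74.6 and 65.9 CPM in NLS Mut. The WT libraries were the lowest of the 9, while the other groups overlapped. Its fitted level was 16.2% lower in WT than in NLS Mut, a log2 difference of -0.25 ± 0.07 (SE, 95% interval -0.41 to -0.10, lower in 3 of 3 libraries), which did not pass the test across all genes (edgeR adjusted p = 0.117). Against vector the difference was -0.29 ± 0.07 in WT (adjusted p = 0.0629) and -0.04 ± 0.07 in NLS Mut (adjusted p = 0.901). DESeq2 called both differences of WT (adjusted p = 0.0329 against NLS Mut, 0.0122 against vector), as did a correction for GC content (0.0458 and 0.00533) and leaving out Vector 1 (0.0483 and 0.0238). The difference from vector alone also passed in edgeR with library size as the only scaling (0.0322), with no filter on low counts (0.0322) and with the replicate number as a block (0.0403). The difference from NLS Mut did not pass with DESeq2 without independent filtering (0.051), and in the other 8 fits that left out a library neither passed (0.147 to 0.53 against NLS Mut, 0.07 to 0.298 against vector). Exons of DNAJB9 share 183 bases with THAP5 and 99 bases with PNPLA8 on the opposite strand, and the counts used carry no strand. Counts summed over both strands came to 100% of the counts used for this gene.

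DNAJB11 (ENSG00000090520.12, chromosome 3, 186567403 to 186585800), or ERdj3, is the abundant soluble J-domain protein that binds unfolded clients directly. It stood at 94.3, 105 and 110 CPM with vector, at 87.1, 87.9 and 87.2 CPM in WT and at 97.6, 91.2 and 96.6 CPM in NLS Mut. Its WT libraries agreed closely and were again the lowest of the 9. The log2 difference of WT from vector was -0.24 ± 0.07 (edgeR adjusted p = 0.122), and from NLS Mut it was -0.12 ± 0.07 (adjusted p = 0.525). The difference from vector passed with DESeq2 (adjusted p = 0.0443), with the correction for GC content (0.0248) and without Vector 1 (0.00326), but not with DESeq2 without independent filtering (0.0638) or in the other 8 fits that left out a library (0.119 to 0.562). Reads of DNAJB11 are uncertain where its exons share 451 bases with AC068631.2 on the same strand and 496 bases with AC068631.1 and 381 bases with TBCCD1 on the other.

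DNAJC1 (ENSG00000136770.11, chromosome 10, 21756537 to 22003769), or ERdj1, is a membrane protein with its J-domain in the lumen. It had the lowest mean CPM of the 10 in each group, at 33.8, 37.2 and 36.2 with vector, 31.4, 29.9 and 34.6 in WT and 28.6, 32.2 and 32.8 in NLS Mut. Every NLS Mut library lay below every vector library, with a log2 difference of -0.20 ± 0.10 (interval -0.39 to 0.00, edgeR adjusted p = 0.416). The difference of WT from vector was -0.16 ± 0.10 (adjusted p = 0.537).

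The other 3 J-domain proteins differed little. DNAJC3 (ENSG00000102580.15, chromosome 13, 95677139 to 95794989), known as P58IPK, is a lumenal protein that also bears on the sensor PERK, and its 9 libraries lay between 111 and 132 CPM with all groups overlapping. DNAJC10 (ENSG00000077232.19, chromosome 2, 182716041 to 182794464), or ERdj5, is a disulfide reductase that helps to degrade misfolded proteins, and it lay between 161 and 199 CPM. SEC63 (ENSG00000025796.14, chromosome 6, 107867756 to 107958189), the J-domain partner of the Sec61 channel, lay between 131 and 151 CPM. Over these 3 genes and the 3 comparisons the log2 differences ran from -0.08 to 0.05, and no 95% interval reached beyond -0.21 or 0.21. Corrected for GC content and length, DNAJC10 stood further from vector, at -0.17 ± 0.05 in WT (edgeR adjusted p = 0.0819) and -0.14 ± 0.05 in NLS Mut (0.187). The sign of 1 or more of these small differences turned for each gene under an alternative setting.

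HYOU1 (ENSG00000149428.21, chromosome 11, 119044189 to 119057202), also called GRP170 or ORP150, is a large Hsp70-like protein that serves as nucleotide exchange factor for GRP78 and holds unfolded clients itself. It was the highest of the 10 by CPM, at 817, 976 and 960 with vector, 791, 789 and 771 in WT and 748, 732 and 707 in NLS Mut. The groups did not overlap in any of the 3 comparisons, with vector highest and NLS Mut lowest. Its fitted level was 20.6% lower than vector in NLS Mut, a log2 fold change of -0.33 ± 0.05 (interval -0.44 to -0.22, edgeR adjusted p = 0.00147, lower in 3 of 3 libraries). In WT it was 14.6% lower, at -0.23 ± 0.05 (interval -0.34 to -0.12, adjusted p = 0.0496, lower in 3 of 3 libraries). Between both F-78 groups it was 0.10 ± 0.05 higher in WT, which did not pass the test (adjusted p = 0.481).

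The fall of HYOU1 in NLS Mut passed in all 9 fits that left out a library and in all 11 other alternatives, with log2 fold changes of -0.42 to -0.27. The fall in WT sat at the edge of the threshold. It kept its direction throughout, at -0.31 to -0.17, but passed in 1 of the 9 fits that left out a library, the one without Vector 1 (adjusted p = 5.39e-06). Without Vector 2 its adjusted p was 0.439, without Vector 3 0.301, without WT 1, 2 or 3 0.202, 0.0524 and 0.251, and without NLS Mut 1, 2 or 3 0.0957, 0.0777 and 0.0785. With DESeq2 size factors in edgeR it was 0.0552, and with only both groups compared 0.168. An antisense gene, AP003392.3, shares 666 bases with its exons.

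SIL1 (ENSG00000120725.13, chromosome 5, 138946720 to 139293557), or BAP, is the smaller exchange factor, which pulls ADP from GRP78 by a different fold. It stood at 31.0, 41.2 and 41.3 CPM with vector, at 36.2, 38.5 and 36.1 CPM in WT and at 34.4, 32.2 and 38.3 CPM in NLS Mut. The lowest of the 9 was Vector 1, below every F-78 library, while the other vector libraries were the highest. No comparison passed (log2 differences of -0.12 to 0.08, edgeR adjusted p of 0.704 or more). Counts summed over both strands came to 207% of the counts made without strand for this gene, whose exons overlap those of MATR3, SNHG4 and AC011405.1 on the opposite strand. Reads of the overlaps are left out of the first count and cannot be told apart in the sum, so its level is uncertain. With the strands summed, SIL1 stood at 42.9% of HSPA5 per kb in the vector libraries, near DNAJB11 at 46.2%.

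SDF2L1 (ENSG00000128228.5, chromosome 22, 21642261 to 21644298) binds DNAJB11 and keeps clients from aggregating during the GRP78 cycle. It stood at 92.7, 144 and 151 CPM with vector, at 90.4, 95.9 and 97.0 CPM in WT and at 100, 107 and 95.8 CPM in NLS Mut. Vector 1 lay among the F-78 libraries, and the other vector libraries stood far above all 7. The fitted level in WT was 27.1% lower than with vector, at -0.46 ± 0.10 on the log2 scale (interval -0.67 to -0.24, edgeR adjusted p = 0.0383), although the groups overlapped through Vector 1. In NLS Mut the fold change was -0.36 ± 0.10 (adjusted p = 0.11), and both F-78 groups differed by -0.10 ± 0.11 (adjusted p = 0.802).

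The SDF2L1 transcript holds 65.5% GC, the highest of the 10, and the reads of the libraries leaned toward or away from GC-rich genes to different degrees. The GC slope of a library was fitted across genes. It is the change, for each 10 points of GC, in log2 CPM relative to the mean of the libraries. It was 0.101 in Vector 2 and 0.112 in Vector 3, and between -0.0753 and 0.0312 in the other 7, Vector 1 included. Corrected for GC content, the fold change of SDF2L1 in WT shrank to -0.27 and no longer passed (adjusted p = 0.0651), and corrected for GC and length it was -0.22 (adjusted p = 0.14). DESeq2 did not call it either (-0.45, adjusted p = 0.188). It passed without Vector 1 (-0.645, adjusted p = 1.2e-08) and without WT 2 (-0.46, 0.0365), and did not pass without Vector 2 (-0.37, 0.312), Vector 3 (-0.33, 0.316), WT 1 (-0.42, 0.226), WT 3 (-0.47, 0.157) or NLS Mut 1, 2 or 3 (0.0764, 0.0592 and 0.0619). The difference in NLS Mut, not called here, passed without Vector 1 (-0.55, adjusted p = 4.07e-07), with no filter on low counts (0.000255) and with the replicate number as a block (0.0406).

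**Figure D2:**
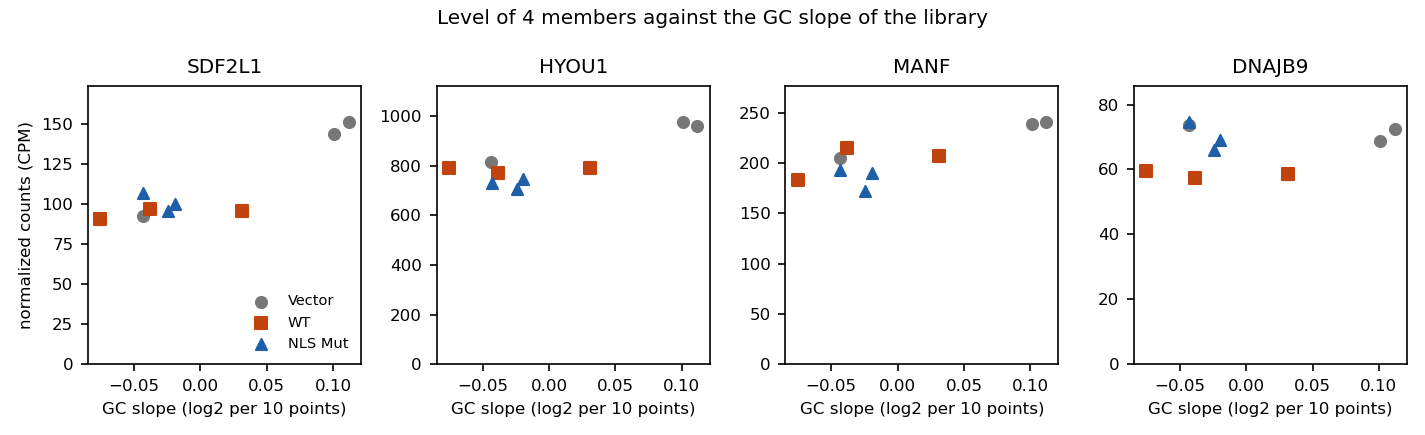
Normalized counts (CPM, vertical axes from 0) of SDF2L1, HYOU1, MANF and DNAJB9 against the GC slope of each library (log2 CPM relative to the mean library, per 10 points of GC). Each point is 1 library. The pair of vector libraries with slopes above 0.1 holds the highest SDF2L1, HYOU1 and MANF values, while for DNAJB9 the 3 WT libraries are the lowest whatever their slope.

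The slope of Vector 1, -0.0434, lay within the range of the F-78 libraries. Its HYOU1 level, 817 CPM, was above all 6 of them (707 to 791 CPM). Its MANF level, 205 CPM, lay below 2 of the WT libraries and above all NLS Mut libraries, and its SDF2L1 level lay below 5 of the 6. Across the 9 libraries, log2 CPM and the GC slope had a Pearson correlation of 0.90 for SDF2L1, 0.82 for HYOU1 and 0.80 for MANF, 0.79 for DNAJB11 (37.8% GC) and 0.77 for SIL1 (58.5% GC). It was 0.53 for DNAJC1 and 0.24 for DNAJB9, and negative for DNAJC3 (-0.26), DNAJC10 (-0.40) and SEC63 (-0.64). The highest slopes both belong to vector libraries, so slope and group are partly tied, and how much of the differences from vector goes with the slope, beyond these corrections, was not tested. Corrected for GC content, HYOU1 still passed against vector in NLS Mut (-0.27, adjusted p = 0.000515) and in WT (-0.17, adjusted p = 0.0475).

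MANF (ENSG00000145050.19, chromosome 3, 51385047 to 51389397) is a small ER stress protein that holds GRP78 in its client-bound state by opposing nucleotide exchange. It stood at 205, 239 and 241 CPM with vector, at 183, 207 and 215 CPM in WT and at 190, 193 and 172 CPM in NLS Mut. All NLS Mut libraries lay below all vector libraries, while WT overlapped both. The fitted level in NLS Mut was 18.9% lower than with vector, at -0.30 ± 0.07 on the log2 scale (interval -0.44 to -0.16, edgeR adjusted p = 0.028, lower in 3 of 3 libraries). In WT the difference was -0.18 ± 0.07 (adjusted p = 0.277), and both F-78 groups differed by 0.12 ± 0.07 (adjusted p = 0.522), so a difference between both constructs was not shown.

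The fall of MANF in NLS Mut passed in all 11 alternatives that kept every library, at -0.325 to -0.254. It passed in 4 of the 9 fits that left out a library, those without Vector 1 or any WT library. It did not pass without Vector 2 (adjusted p = 0.169), Vector 3 (0.151) or NLS Mut 1, 2 or 3 (0.0948, 0.0914 and 0.24). The difference in WT passed without Vector 1 alone (-0.25, adjusted p = 0.00708).

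**Figure D3:**
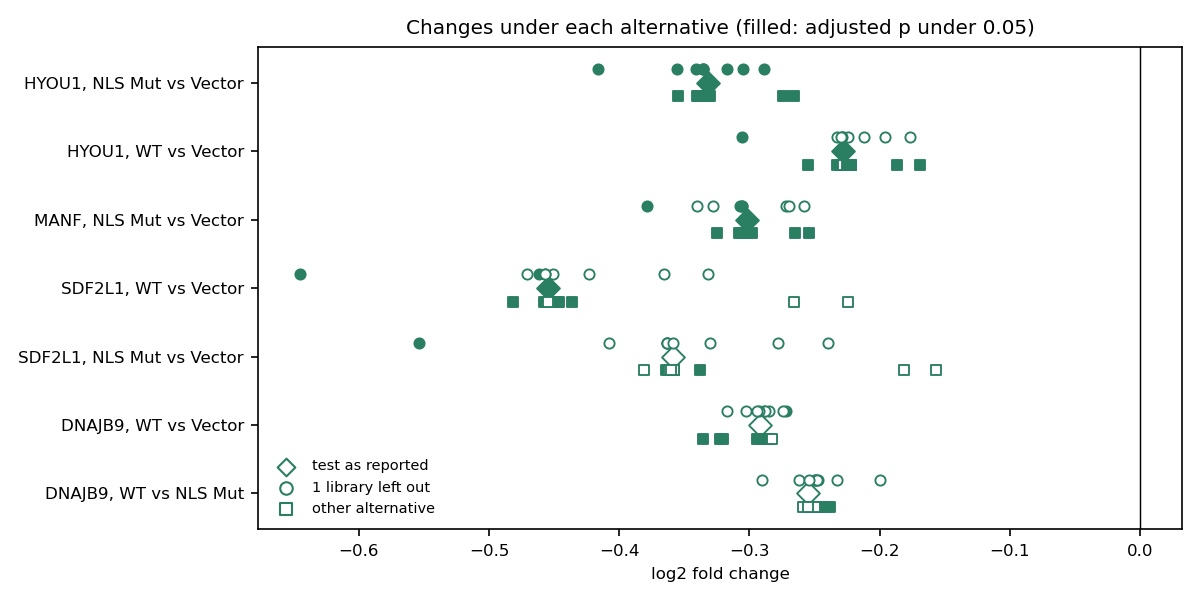
Log2 fold changes (horizontal axis) of HYOU1, MANF, SDF2L1 and DNAJB9 in the named comparisons under every setting. Diamonds are the test as reported, circles leave out 1 library and squares are the other alternatives, and filled marks have an adjusted p under 0.05. All marks lie below 0, the HYOU1 marks against vector in NLS Mut are all filled, and the fits without Vector 1 give the lowest value for HYOU1, MANF and SDF2L1.

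Counted over the 10 genes, WT against vector had 2 genes lower (HYOU1 and SDF2L1) and 0 higher, where 64 of all 18653 genes were lower (0.343%) and 0.558% were called in either direction. NLS Mut against vector had 2 lower (HYOU1 and MANF) and 0 higher, where 93 of all genes were lower (0.499%) and 0.793% were called in either direction. WT against NLS Mut had 0 called, where 0.504% of all genes were. At an unadjusted p under 0.05 that comparison had 1 of the 10, DNAJB9, against 11.6% of all genes. DESeq2 called 1 of the 10 between constructs (2.86% of the genes it gave an adjusted p), 3 in WT against vector (2.16%) and 2 in NLS Mut against vector (4.31%), and without its independent filtering the first became 0. The median log2 difference of the 10 was -0.17 in WT and -0.12 in NLS Mut against vector, beside a median of -0.002 over all genes in both. Against vector 9 of the 10 were negative in WT, DNAJC3 being the exception, and 8 in NLS Mut, DNAJC3 and SEC63 being the exceptions. The same 3 vector libraries serve in both comparisons, which ties these values to each other. Between both F-78 groups 5 were negative and 5 positive, with a median of -0.004 beside -0.005 over all genes.

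Groups that did not overlap were also counted. In WT every library lay below every vector library for 3 of the 10 genes, DNAJB9, DNAJB11 and HYOU1, against 6.54% of all genes. In NLS Mut this held for 3 of the 10, DNAJC1, HYOU1 and MANF, against 8.82%. WT lay wholly below NLS Mut for 2 genes, DNAJB9 and DNAJB11 (9.41% of all genes), and wholly above for HYOU1 alone (8.25%). With 3 libraries against 3, an exact permutation test of a single gene cannot go below p = 0.1.

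**Figure D4:**
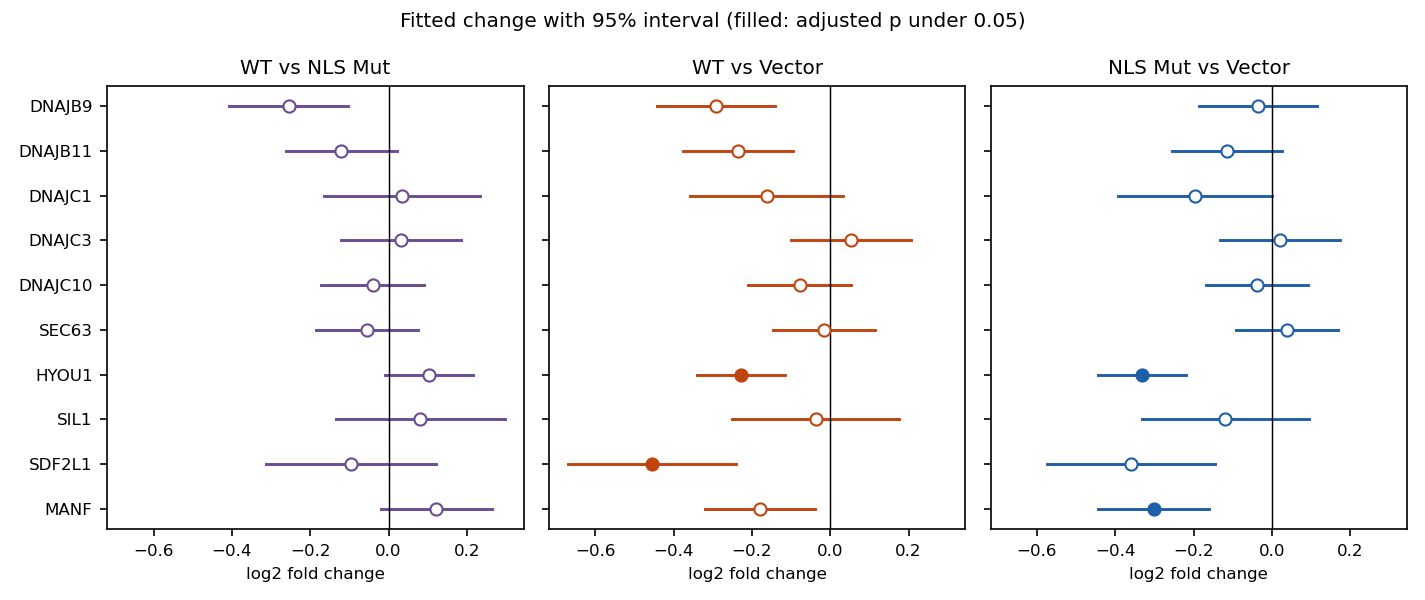
Fitted log2 fold change of each gene (point) with its 95% interval (line) in the 3 comparisons, on a common horizontal axis. Filled points have an adjusted p under 0.05 across all tested genes. Filled points are HYOU1 and SDF2L1 for WT against vector and HYOU1 and MANF for NLS Mut against vector, and DNAJB9 is the lowest point in WT against NLS Mut, at -0.25.

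Levels were compared between genes per kilobase (kb) of the principal transcript. In the vector libraries HYOU1 (203 ± 19.3 CPM per kb, SD, n = 3) and MANF (198 ± 17.2) came first and their libraries overlapped. SDF2L1 (149 ± 36.8) followed, apart from MANF in every vector library. DNAJB11 (42.9 ± 3.26) and DNAJB9 (26.4 ± 0.96) came next, each apart from its neighbours there. SEC63 (21.8 ± 1.14), DNAJC3 (21.6 ± 1.55), SIL1 (19.7 ± 3.08) and DNAJC1 (17.0 ± 0.82) followed, and each of these overlapped the next. DNAJC10 was lowest (9.19 ± 0.62), where the principal transcript is very long (20129 bases), which makes the division uncertain. Part of this order depends on the length used. With the length of all merged exons, SDF2L1 came above MANF (121% ± 25.2 and 98.9% ± 4.38 of HSPA5 in the vector libraries, overlapping), and DNAJB9 came above DNAJB11 (26.2% ± 1.91 and 18.6% ± 0.59).

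Relative to HSPA5 the 10 genes together stood at 674%, 765% and 756% of its level per kb in the vector libraries. In WT they stood at 45.4%, 40.7% and 39.2%, and in NLS Mut at 47.0%, 45.9% and 46.5%. HYOU1, SDF2L1 and MANF each exceeded HSPA5 in the vector libraries, by CPM per kb, and lay at 7.13% to 13.6% of it in the F-78 libraries. With merged exon lengths SDF2L1 (92.0%) and MANF (93.9%) stood below HSPA5 in Vector 1 and above it in the other vector libraries, while HYOU1 stood above it in all 3. Without division by length SDF2L1 (25.9% to 38.6%) and MANF (57.3% to 62.2%) were below HSPA5 in every vector library. The 6 J-domain proteins together went from 144% ± 4.38 (SD, n = 3) of HSPA5 with vector to 8.76% ± 1.00 in WT and 10.5% ± 0.19 in NLS Mut. The summed level of the 10 itself was 618 to 757 CPM per kb with vector, 585 to 616 in WT and 567 to 606 in NLS Mut. HSPA5 was targeted by si78 in every library and transfected in the F-78 groups, so the large fall of these ratios was set by the design. The J-domain sum itself was 136.5 to 140.5 CPM per kb with vector, 121.2 to 129.1 in WT and 131.0 to 136.9 in NLS Mut. The vector ratios use the HSPA5 that remained after si78, and its level without si78 was not measured here. These ratios are of transcripts in a mixed population. The plasmids lack the 3′ end that is counted in the length of HSPA5, so its level per kb is understated in both F-78 groups.

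**Figure D5:**
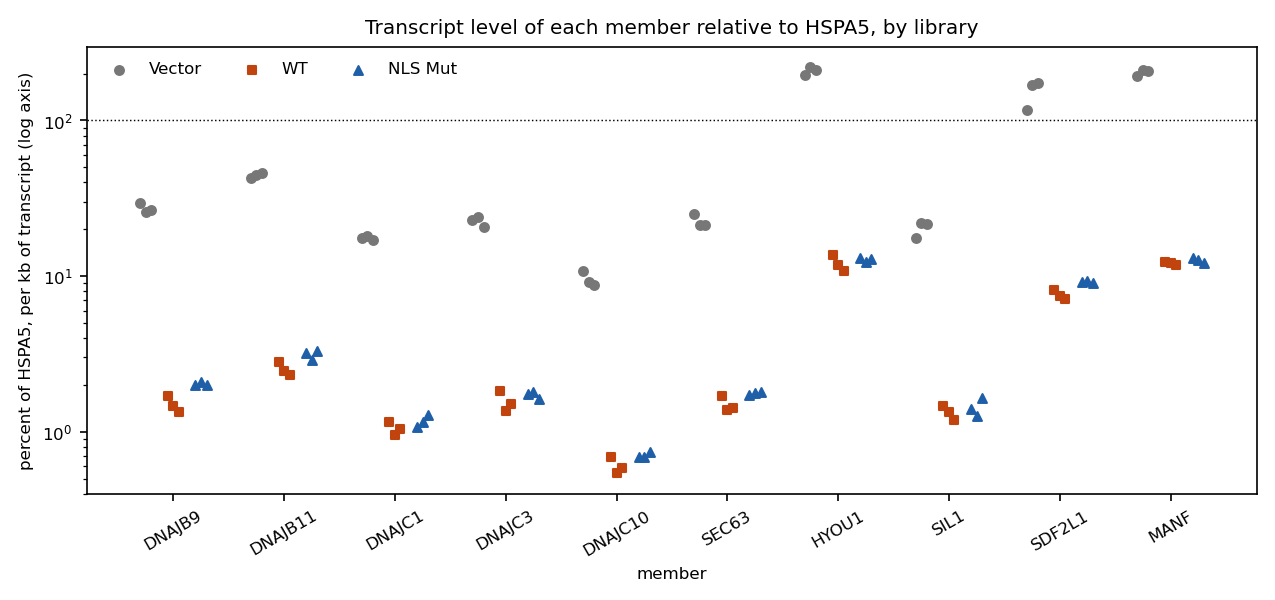
Level of each gene as a percentage of HSPA5, both per kb of principal transcript, on a logarithmic axis, with 1 point per library. The dotted line is 100%. HYOU1, SDF2L1 and MANF lie above it in the vector libraries. Every gene lies lower in the 6 F-78 libraries, where HSPA5 was transfected, than in the 3 vector libraries.

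Other regulators and neighbours in the pathway were read beside the 10. FICD, which switches GRP78 off by adding AMP, stood at 15.3 ± 1.57 CPM with vector (SD, n = 3), 11.6 ± 1.58 in WT and 11.5 ± 1.54 in NLS Mut. Its vector libraries lay above all others, and neither difference passed (-0.40 and -0.41 on the log2 scale, edgeR adjusted p = 0.225 and 0.194). HSPA13, another Hsp70 of the ER, SDF2, the paralog of SDF2L1, and CDNF, the paralog of MANF, overlapped between all groups, with means of 89.2 to 95.5, 35.8 to 37.1 and 2.09 to 2.59 CPM. Counts summed over both strands came to 143% of the counts used for FICD and 342% for CDNF, so the levels of both are uncertain. In all, 0 of 9 genes in that list were called in any comparison, beside 0.504% to 0.793% of all genes.

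Among 14 other lumenal chaperones and foldases, 4 fell in NLS Mut against vector and 0 rose, beside 0.499% of all genes called lower. They were PDIA4 (-0.41 ± 0.05, edgeR adjusted p = 9.12e-06) and HSP90B1 (-0.28 ± 0.04, 0.000268), a disulfide isomerase and the ER form of Hsp90, with the lectin chaperone CALR (-0.23 ± 0.05, 0.0183) and CRELD2 (-0.35 ± 0.07, 0.0183). Against vector 0 of the 14 passed in WT, beside 0.558% of all genes. There CRELD2 stood at -0.28 (edgeR adjusted p = 0.0741), CALR at -0.18 (0.107), PDIA4 at -0.15 (0.149) and HSP90B1 at -0.02 (0.921). Between both constructs CALR (0.06, 0.738) and CRELD2 (0.07, 0.814) did not pass. Both PDIA4 (0.26 ± 0.05, edgeR adjusted p = 0.00572) and HSP90B1 (0.27 ± 0.04, 0.000574) were higher in WT than in NLS Mut. In that comparison 0 of the 10 co-chaperone genes passed, beside 0.504% of all genes, so their count of 0 does not set them apart. The median log2 difference of the 14 was -0.21 in NLS Mut against vector and 0.09 between both constructs, beside -0.12 and -0.004 for the 10. With 1 library left out at a time, PDIA4 and HSP90B1 against vector and HSP90B1 between constructs passed in all 9 fits. CALR did not pass without Vector 2 or 3 or NLS Mut 1 or 3, CRELD2 without Vector 2 or 3 or any NLS Mut library, and PDIA4 between constructs without WT 3 (adjusted p = 0.0592) or NLS Mut 1 (0.0548).

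Of 8 sensors and factors of the UPR, 2 fell in WT against vector, beside 0.343% of all genes called lower. They were DDIT3 (-0.63 ± 0.09, edgeR adjusted p = 0.000328), which encodes CHOP, and PPP1R15A (-0.55 ± 0.09, 0.00103), which encodes GADD34. In NLS Mut 0 of the 8 passed, beside 0.793% of all genes. DDIT3 stood at -0.26 ± 0.09 there (edgeR adjusted p = 0.187) and PPP1R15A at -0.21 ± 0.09 (0.29). Between both constructs, WT against NLS Mut, neither passed (-0.37, edgeR adjusted p = 0.0606, and -0.34, 0.0609). In the degradation pathway HERPUD1 was the only one of 13 genes called, lower in WT (-0.27 ± 0.05, 0.0165), beside 0.343% of all genes. In NLS Mut HERPUD1 was -0.19 ± 0.05 from vector (edgeR adjusted p = 0.111), and between both constructs it was -0.08 ± 0.05 (0.61). Of the 9 genes of the Sec61 translocon, which SEC63 serves, 0 were called in any comparison, beside 0.504% to 0.793% of all genes. Their medians lay between -0.08 and 0.02. Of the 7 epithelial markers, 2 were higher in WT than in NLS Mut, beside 0.504% of all genes called in either direction. They were CDH1 (0.27 ± 0.06, 0.0364) and KRT19 (0.23 ± 0.05, 0.0438). CDH1 alone was lower in NLS Mut than with vector (-0.25 ± 0.06, 0.0437), beside 0.499% of all genes called lower. The summed level of the 7 markers was 4789 to 5515 CPM with vector, 5107 to 5216 in WT and 4688 to 4887 in NLS Mut, and its part in the results above was not tested. DDIT3 and PPP1R15A passed in all 9 fits that left out a library. HERPUD1 did not pass without Vector 2 or 3 or WT 1 or 3, and CDH1 and KRT19 in WT against NLS Mut did not pass without WT 1 or 3 or any NLS Mut library. CDH1 against vector did not pass without Vector 2 or 3, WT 3 or any NLS Mut library.

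The genes whose pattern over the 9 libraries was most like that of the called genes were sought among the 10061 tested genes whose mean was 10 CPM or more. By Pearson correlation of log2 CPM they were CD70 (0.97), CALR (0.97) and OS9 (0.96) for HYOU1, FAM174C (0.98), LIMK1 (0.98) and ZNF282 (0.97) for SDF2L1, and SLC9A3-AS1 (0.99), SYTL1 (0.96) and CKB (0.96) for MANF. The GC content of these 9 ran from 51.8% to 66.8%. Within the 10, HYOU1 and MANF had the highest correlation (0.888), followed by SDF2L1 with DNAJB11 (0.855) and with HYOU1 (0.835). SIL1 and SEC63 ran most opposite (-0.822). The 9 libraries share 3 groups and their GC slopes, so these are descriptions.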

How the data were processed

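The 9 deposited files hold raw read counts of genes with no normalization, laid out as STAR writes them (STAR 2.7.9a, DESeq2 1.36.0 and GRCh38.p14 in the submitters' processing notes, annotation not given in the sources used here). The column without strand was used. Its 4 summary lines (27.6% to 30.7% of reads) were left out. Coordinates, lengths and GC content came from GENCODE 29 (58342 of 61544 genes matched). Nothing states that replicates were separate cultures, so p-values weigh group differences against the spread between libraries, which may be technical. Libraries of a group differed beyond sampling noise (chi-square per degree of freedom 3.55 to 12.6).

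After filterByExpr and TMM normalization (factors 0.989 to 1.02), counts were fitted with edgeR 4.0.16 (limma 3.58.1, R 4.3.3) in 1 quasi-likelihood model of all 9 libraries with 1 coefficient per group. P-values were two-sided and adjusted by Benjamini-Hochberg over 18653 genes, with a threshold of 0.05. SE is the absolute log2 fold change over the square root of F. CPM uses TMM library sizes. The median biological coefficient of variation was 11.1%, and 3 libraries per group limit small changes. In 3 simulations of WT against NLS Mut with 18653 genes, edgeR recovered 47.3% of log2 changes of 0.5 and 68.7% of those of 1, with 4.37% false calls.

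Genes named are the 10, HSPA5, FICD, HSPA13, SDF2, CDNF, listed pathway genes called in a comparison, and for each called gene of the 10 the 3 most correlated genes. Genes named for overlaps or as cell type markers were added. The 10 and all lists were chosen with earlier results of these data known. Alternatives were DESeq2 1.42.0 with and without independent filtering, edgeR with DESeq2 size factors or with library size alone, no filter, a mean of 1 CPM or more, the sum of both stranded columns, only the groups compared, a replicate block, GC and length corrections (loess, span 0.3) and leaving out each library. Deviations of same-numbered libraries were weakly correlated at most (-0.024 to 0.059). Proteins were not analysed here.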

Additional observations from a re-analysis of the deposited data

How the results depend on the processing

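Of 600 log2 fold changes of the 10 genes under alternatives, 532 kept their direction and side of the threshold, 27 lost a call, 20 gained one and 21 changed sign, all of the last in differences that passed under no setting. DNAJC3 in NLS Mut against vector became -0.003 by library size alone, -0.044 with GC correction and -0.048 with GC and length correction, and ran from -0.041 to 0.078 over the fits that left out 1 library. In WT against vector it became -0.007 with GC and length correction, and between constructs it ran from -0.027 to 0.113 over those fits. SEC63 in NLS Mut against vector became -0.025 and -0.032 with the same 2 corrections, and over the fits that left out 1 library it ran from -0.005 to 0.075, and from -0.041 to 0.027 in WT against vector. SIL1 in WT against vector became 0.051 and 0.047 with these corrections and ran from -0.161 to 0.032 over those fits. Over the same fits DNAJC10 ran from -0.08 to 0.011 in NLS Mut against vector and from -0.072 to 0.025 between constructs, and DNAJC1 from -0.018 to 0.089 between constructs.

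Called genes of the 10 numbered 2, 2 and 0 for NLS Mut against vector, WT against vector and WT against NLS Mut. The last became 1, DNAJB9, with DESeq2, with either GC correction and without Vector 1. WT against vector had 1 with DESeq2 size factors and 0 with only the groups compared. Leaving out 1 library gave 0 to 5 for WT against vector, 1 to 3 for NLS Mut against vector and 0 to 1 between constructs. Over all genes, in the order WT against NLS Mut, WT against vector and NLS Mut against vector, calls went from 94, 104 and 148 to 316, 262 and 430 with DESeq2, 275, 221 and 310 without its independent filtering, 225, 289 and 240 with no filter, 457, 191 and 273 with GC and length correction and 414, 200 and 241 with GC correction. The first became 149 with the 1 CPM filter, and with only the groups compared the first became 315 and the second 26. Leaving out 1 library gave 27 to 388, 19 to 1256 and 33 to 1002, the highest without Vector 1 in each. The cause of these shifts was not tested.

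With the replicate block all-gene calls were 212, 232 and 230 in that order, and of the 10 genes 3 were called against vector in each group and 0 between constructs. Correlations of same-numbered libraries were weak (-0.024 to 0.059), although Vector 1 with WT 1 (0.059) and Vector 2 with WT 2 (0.033) were the highest of all between-group pairs. The labels do not say that the numbers pair samples, so they were not taken to, and whether they do was not settled.

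The ratio of the 10 genes to HSPA5 was 732%, 41.8% and 46.5% for vector, WT and NLS Mut. Without division by length it was 521%, 30.8% and 34.1%, and with merged exon lengths, added after the data were seen, 460.5%, 26.1% and 29.4%. With stranded sums it was higher in each group, at 766.1%, 43.65% and 48.7%. Counts of groups that do not overlap, recomputed under 3 settings added after the data were seen, stayed within 1.5 times.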

Other observations

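The cytosol has its own J-domain proteins and exchange factors, which serve HSC70 and HSP70, and 12 of them were read as a counterpart to the ER set. All 12 were tested and 0 were called in any comparison with edgeR, beside 0.504% to 0.793% of all genes. Their median log2 difference was 0.12 in NLS Mut against vector, where 11 of the 12 were positive, and 0.00 in WT against vector, where 6 were. Between constructs, WT against NLS Mut, it was -0.10, with 10 of 12 negative. The exchange factor HSPH1 stood at 116 ± 2.22 CPM with vector (SD, n = 3), 118 ± 5.19 in WT and 135 ± 2.94 in NLS Mut, with a difference from vector of 0.22 ± 0.06 in the last (adjusted p = 0.102). It was named after its values were seen. The 10 ER genes had a median of -0.12 in NLS Mut against vector, with 8 negative. Whether the lists differ was not tested.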
